A study of Arabidopsis thaliana with 36 samples.

Results

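The entry steps of phenylpropanoid metabolism are encoded in *Arabidopsis thaliana* by small gene families, of which 8 genes were followed here: the phenylalanine ammonia-lyases PAL1 (AT2G37040), PAL2 (AT3G53260), PAL3 (AT5G04230) and PAL4 (AT3G10340), the cinnamate 4-hydroxylase C4H (AT2G30490), and the 4-coumarate:CoA ligases 4CL1 (AT1G51680), 4CL2 (AT3G21240) and 4CL3 (AT1G65060). They were taken by locus, with no threshold on a measured value, and are 8 of the 32678 genes counted. Of the 8, 7 passed the filter on low counts and were tested, and PAL3 did not. The 12 groups, with 3 RNA-seq libraries each, were CASP1::shy2-2/slr-1 and slr-1 seedlings on control medium or after 2, 4, 8, 16 or 24 h on medium with 10 µM NAA (1-naphthaleneacetic acid, a synthetic auxin). Every group was in the Col-0 background, carried slr-1 and was 7 days old at harvest. Each genotype had 1 control group, and no untreated group was kept for each of the NAA times. A change against control therefore cannot be told apart from an effect of transfer to the NAA medium or of the hour of harvest. The mutation slr-1 (solitary root) stabilises the auxin-response repressor IAA14 and blocks lateral root formation. The transgene CASP1::shy2-2 adds the stabilised repressor IAA3 under the CASP1 promoter, which is active in the differentiating endodermis. RNA came from the root without its tip and without the shoot and hypocotyl, so a response in the endodermis was read in a mixture of all root tissues, and fewer cells of a type cannot be told apart from less RNA per cell. The labels do not say whether the transgenic line was 1 insertion event.

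Phenylalanine ammonia-lyase removes the amino group of phenylalanine and gives cinnamate, the carbon skeleton of all phenylpropanoids. C4H, a cytochrome P450 of the endoplasmic reticulum, hydroxylates cinnamate to 4-coumarate, and 4-coumarate:CoA ligase joins it to coenzyme A. The product, 4-coumaroyl-CoA, is the branch point towards lignin monomers, the aromatic part of suberin, flavonoids and coumarins. In the root these products line xylem walls, the Casparian strip and suberin lamellae of the endodermis, while flavonols also affect auxin transport. PAL1, PAL2, 4CL1 and 4CL2 are known mainly for lignin supply, and 4CL3 mainly for flavonoid supply.

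On the RefSeq annotation of TAIR10.1, all genes lie on the nuclear chromosomes. PAL1 is at chr2:15557367-15560755 on the minus strand with 2 exons, PAL2 at chr3:19744018-19747114 on the minus strand with 2 exons, PAL3 at chr5:1160569-1163957 on the plus strand with 3 exons, and PAL4 at chr3:3203988-3208135 on the plus strand with 3 exons. C4H is at chr2:12993625-12996012 on the minus strand with 3 exons. 4CL1 is at chr1:19158746-19161737 with 4 exons, 4CL2 at chr3:7454269-7457404 with 4 exons and 4CL3 at chr1:24167202-24171635 with 7 exons, all on the minus strand. The coding sequences of PAL1 and PAL2 were 84.0% identical, and their transcripts shared an unbroken run of 80 bases. Reads that fit both genes could thus be lost in counting, or misplaced between the pair. 4CL1 and 4CL2 were 81.6% identical with a longest shared run of 35 bases, while 4CL3 was 68.5% identical to 4CL1 and 67.3% to 4CL2. 4CL1 overlaps AT1G51670 on the other strand, but that gene had 0 to 7 reads in a library (median 3).

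The windows from 250 bases before to 50 bases after each annotated start were searched on both strands for the AC elements known from phenylpropanoid promoters in several plants and for the core of the auxin response element. The letters were ACCTACC for element AC-I, ACCAACC for AC-II, ACCTAAC for AC-III and TGTCTC for the auxin response element. The stretches below are shown because they hold every match found in the 8 windows, and capitals mark the matches. PAL1 and PAL2 each had 1 ACCAACC, at bases 39 and 4 of the annotated transcript, within a run of 15 bases that both genes share (agtctcACCAACCgc), and PAL2 had TGTCTC 14 bases before its start. 4CL2 had a pair of ACCAACC matches, 140 and 31 bases before the start, and TGTCTC on the other strand, printed as GAGACA. 4CL3 had ACCTACC 120 and 68 bases before the start. The first pair of stretches is PAL1 at chr2:15560706-15560735 and PAL2 at chr3:19747099-19747128, and the second pair is the 250 bases upstream of 4CL2 at chr3:7457405-7457654 and of 4CL3 at chr1:24171636-24171885, all on the minus strand and read 5′ to 3′.
PAL1: aaaaaatctcgtagtctcACCAACCgcgaa
PAL2: TGTCTCcaaaaagtctcACCAACCgcaaaa
4CL2: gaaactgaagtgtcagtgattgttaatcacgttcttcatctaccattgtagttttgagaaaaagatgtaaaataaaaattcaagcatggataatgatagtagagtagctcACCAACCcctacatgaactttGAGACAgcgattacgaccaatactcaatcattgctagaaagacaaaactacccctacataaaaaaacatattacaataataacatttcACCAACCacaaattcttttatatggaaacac
4CL3: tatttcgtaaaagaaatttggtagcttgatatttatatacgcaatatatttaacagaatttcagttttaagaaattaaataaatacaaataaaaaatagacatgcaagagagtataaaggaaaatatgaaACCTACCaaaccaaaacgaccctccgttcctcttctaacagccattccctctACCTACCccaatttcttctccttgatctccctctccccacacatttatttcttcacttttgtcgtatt
Among 27443 windows of the same length, 3.29% held ACCAACC, 1.38% ACCTACC, 2.88% ACCTAAC and 14.2% TGTCTC. Any AC element was in 7.29% of the windows and at least 2 were in 0.51%. The windows of PAL3, PAL4, C4H and 4CL1 held none of these matches, which says only that the letters are not there.

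The libraries held 28105042 to 48956957 reads in genes. Markers of the removed parts were low for the root tip (4 genes summing to 0.111 to 9.44 CPM, counts scaled to a common library size, highest at 16 h), with PLT1, PLT2, WOX5 and SMB at 0 in 5, 10, 2 and 7 libraries, and 52.2 to 268 CPM for 4 photosynthesis genes of the shoot. Markers of the Casparian strip were present but unequal between libraries (7 genes, 12.6 to 233 CPM), with CASP5 at 0 in 15 libraries. The third slr-1 control library stood apart, with a Casparian strip sum of 198 CPM against 72.9 and 42.1 CPM in its replicates, and it was the highest slr-1 control for PAL1, PAL2, C4H and all 4CL genes. The second CASP1::shy2-2/slr-1 library of 2 h had a Casparian strip sum of 222 CPM against 105 and 82.7 CPM, and it was the highest of its group for the same 6 genes. Library codes of every 2 h library end in a suffix that no control or 24 h library has and whose meaning the labels do not give, so it and the 2 h response cannot be told apart by those groups alone.

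**Figure D1:**
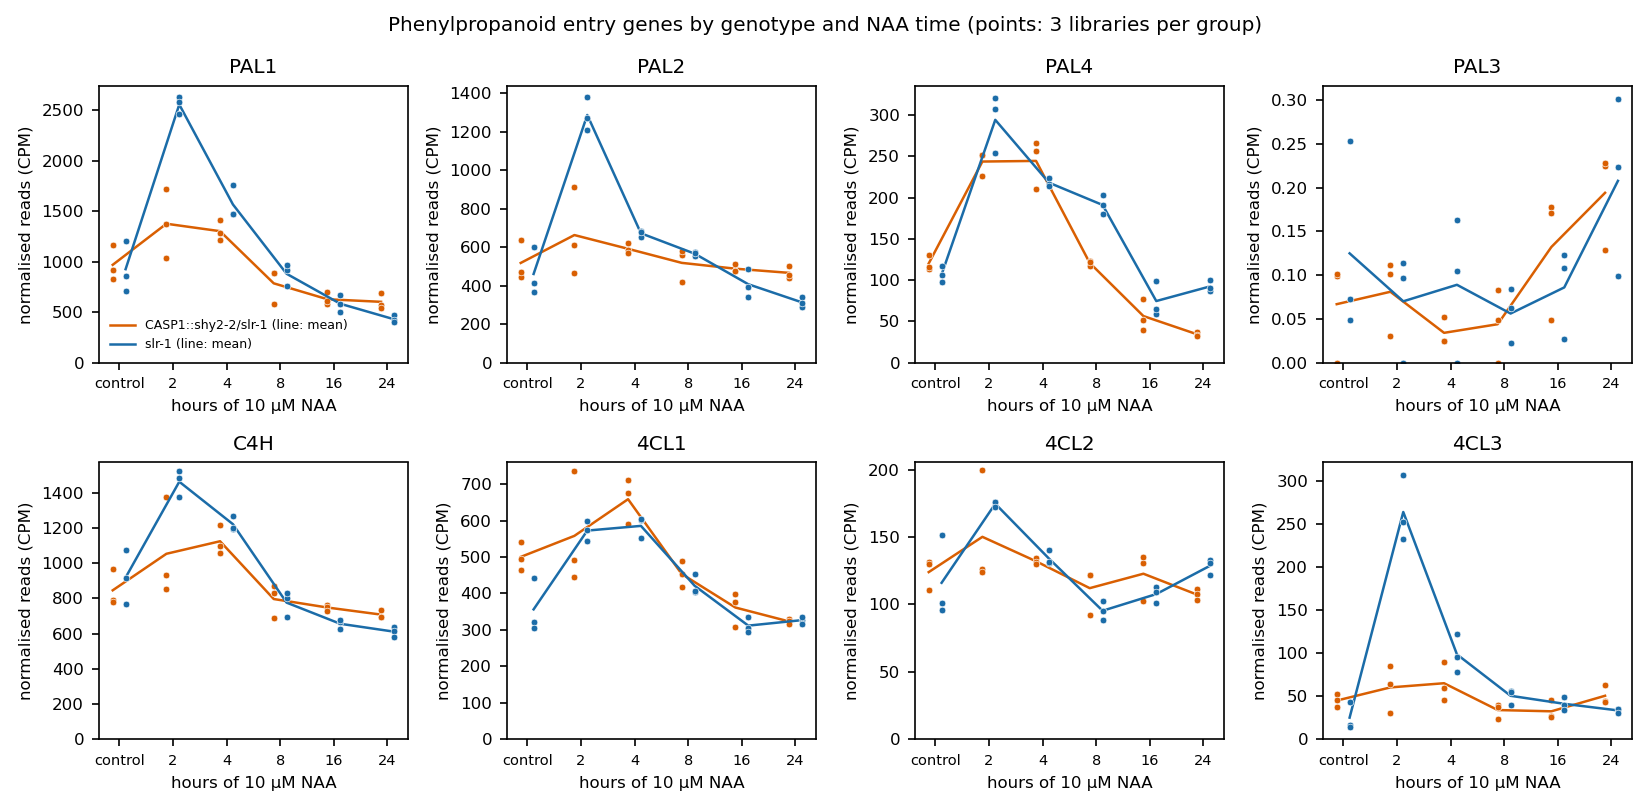
Normalised reads (CPM) of each entry gene against hours of 10 µM NAA, with points for the 3 libraries of each group and lines through the group means of CASP1::shy2-2/slr-1 and slr-1. In slr-1 the points for PAL1, PAL2 and 4CL3 at 2 h lie above all other groups, while PAL3 stays at or under 0.301 CPM.

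Before any auxin, C4H and PAL1 had the highest levels per length, followed by PAL2 and 4CL1. In CPM per kb of exon, CASP1::shy2-2/slr-1 controls had C4H at 406 ± 51.2, PAL1 at 331 ± 59.4, 4CL1 at 196 ± 15.1, PAL2 at 179 ± 35.6, 4CL2 at 59.2 ± 5.52, PAL4 at 44.2 ± 3.44 and 4CL3 at 20.2 ± 3.33 (SD, n = 3). In slr-1 controls the levels were 441 ± 73.7 for C4H, 316 ± 87.6 for PAL1, 139 ± 29.3 for 4CL1, 159 ± 43.5 for PAL2, 55.4 ± 14.6 for 4CL2, 39.3 ± 3.48 for PAL4 and 11.3 ± 7.34 for 4CL3. The neighbours C4H and PAL1, and PAL2 and 4CL1, overlapped within 1 SD in both genotypes, as did 4CL2 and PAL4 in slr-1. PAL3, an ammonia-lyase known for weak activity, had 0 to 12 reads in a library (median 3), with 0 reads in 4 libraries, and nothing more can be read from it at this depth. Over the 12 groups the ratio of the highest to the lowest group mean was 10.6 for 4CL3, 8.57 for PAL4, 5.95 for PAL1, 4.11 for PAL2, 2.4 for C4H, 2.11 for 4CL1 and 1.83 for 4CL2. Without slr-1 control replicate 3 the ratio for 4CL3 was 16.9. The highest group was slr-1 at 2 h for all of these but 4CL1, whose highest was CASP1::shy2-2/slr-1 at 4 h.

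PAL1 and PAL2, the main ammonia-lyases, rose in slr-1 at 2 h of NAA. In slr-1 PAL1 had 2630.3, 2582 and 2462 CPM at 2 h, against 860, 709 and 1209 CPM in controls. All 3 treated libraries were above every control, with a log2 fold change of 1.47 ± 0.19 (SE, adjusted p = 7.24e-07, edgeR quasi-likelihood test). In CASP1::shy2-2/slr-1 PAL1 had 1376, 1718 and 1035 CPM at 2 h, against 825, 1162 and 920 CPM in controls. These groups overlapped, and the log2 fold change was 0.51 ± 0.19 (adjusted p = 0.0379). That call was lost without control replicate 1 (0.40, adjusted p = 0.16), control replicate 3 (0.47, 0.106), 2 h replicate 1 (0.51, 0.0783) or 2 h replicate 2 (0.32, 0.198), with the code suffix as a term and that last library left out (0.27, 0.392), and with total count scaling (0.44, 0.069).

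PAL2 followed the same course with a lower level. In slr-1 it had 1382, 1271 and 1206 CPM at 2 h, against 413, 366 and 603 CPM in controls, with no overlap and a log2 fold change of 1.48 ± 0.19 (adjusted p = 4.93e-07). In CASP1::shy2-2/slr-1 it had 612, 912 and 464 CPM at 2 h, against 445, 635 and 473 CPM in controls. These overlapped and the test was not passed (log2 fold change 0.36, adjusted p = 0.139). The response of CASP1::shy2-2/slr-1 minus that of slr-1 at 2 h was -0.96 ± 0.26 for PAL1 (adjusted p = 0.0159) and -1.13 ± 0.26 for PAL2 (0.00555). For PAL1 that difference was lost without CASP1::shy2-2/slr-1 2 h replicate 3 (-0.79, adjusted p = 0.0704). In a fit of the compared groups alone neither passed (adjusted p = 0.0849 for PAL1 and 0.0793 for PAL2). Without CASP1::shy2-2/slr-1 2 h replicate 2 the difference was -1.14 for PAL1 and -1.41 for PAL2, and both passed.

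Over the later hours both genes came down again, PAL1 to below its starting level. At 4 h in slr-1 PAL1 was at 1567 ± 168 CPM and PAL2 at 672 ± 16.9 CPM, against 926 ± 257 and 460 ± 126 CPM in controls (log2 fold changes 0.76 and 0.54, adjusted p = 0.00194 and 0.0182). The PAL2 call at 4 h was lost without slr-1 control replicate 1 (0.47, 0.0795) or 2 (0.41, 0.109). At 24 h in slr-1 PAL1 had 468, 420 and 401 CPM, all under every control, with a log2 fold change of -1.11 ± 0.19 (adjusted p = 2.55e-05). At 24 h in CASP1::shy2-2/slr-1 it had 693, 572 and 542 CPM, again under every control of that genotype, with a log2 fold change of -0.69 (adjusted p = 0.004). At 16 h PAL1 was lower by -0.63 in CASP1::shy2-2/slr-1 (adjusted p = 0.0121) and by -0.67 in slr-1 (0.00528). The first of these was lost without control replicate 2 (-0.47, 0.0743) or 16 h replicate 2 (-0.56, 0.0583), and the second without control replicate 3 (-0.44, 0.0529). PAL2 fell at 24 h in slr-1 (-0.56, adjusted p = 0.0131), a call lost without control replicate 3 (-0.31, 0.164) or 24 h replicate 2 (-0.49, 0.0539).

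PAL4, a minor ammonia-lyase also tied to lignin, rose early in both genotypes and then parted between them. At 2 h CASP1::shy2-2/slr-1 libraries had 252, 252 and 227 CPM, against 114, 116 and 131 CPM in controls, a log2 fold change of 1.02 ± 0.17 (adjusted p = 4.19e-05). In slr-1 it had 255, 321 and 307 CPM at 2 h, against 106, 117 and 97.7 CPM in controls, a log2 fold change of 1.46 ± 0.17 (1.3e-07). Neither genotype's groups overlapped, and the difference of the responses was not past the threshold (-0.44, adjusted p = 0.195). At 4 h the log2 fold change was 1.02 in CASP1::shy2-2/slr-1 (adjusted p = 5.54e-05) and 1.03 in slr-1 (2.1e-05).

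At 8 h and at 24 h PAL4 stood lower in CASP1::shy2-2/slr-1, while at 16 h the difference was -0.40 (adjusted p = 0.14, and 0.135 with the replicate block). At 16 h it had 40.1, 51.7 and 77.5 CPM in CASP1::shy2-2/slr-1, against 59.4, 65.2 and 99.2 CPM in slr-1, lower in each of the 3 same-numbered pairs. The replicate block gives all 12 groups the same replicate effects, so it does not account for a pairing found at 16 h alone. The difference at 16 h passed without CASP1::shy2-2/slr-1 16 h replicate 3 (-0.70, 0.00303), with libraries without a suffix alone (-0.45, 0.0192) and without the 5 libraries that stood apart (-0.44, 0.0202). The last 2 settings both leave out replicate 3 of each genotype at 16 h. They compare the same libraries there and are not separate evidence. The difference was -0.20 (0.457) without CASP1::shy2-2/slr-1 16 h replicate 1 and -0.15 (0.551) without slr-1 16 h replicate 3. At 8 h it had 117, 123 and 122 CPM in CASP1::shy2-2/slr-1, against 191, 203 and 179.8 CPM in slr-1 (log2 difference -0.66, adjusted p = 0.00715). At 24 h it had 37.3, 33.6 and 32.1 CPM in CASP1::shy2-2/slr-1, against 86.5, 90.8 and 99.7 CPM in slr-1 (-1.43 ± 0.17, adjusted p = 3.11e-07). The genotypes did not overlap at 8 h or at 24 h. Against its own control, CASP1::shy2-2/slr-1 was lower by -1.81 ± 0.17 at 24 h (adjusted p = 4.55e-09), and the response differed from that of slr-1 by -1.60 ± 0.23 (2.35e-05). The difference of the responses at 8 h, -0.83 ± 0.23 (adjusted p = 0.0217), was lost without CASP1::shy2-2/slr-1 control replicate 3 (-0.75, 0.0638), CASP1::shy2-2/slr-1 8 h replicate 1 (-0.79, 0.0603) or slr-1 control replicate 1 (-0.81, 0.0572). At 16 h PAL4 was lower by -1.09 in CASP1::shy2-2/slr-1 (adjusted p = 1.81e-05) and by -0.52 in slr-1 (0.0128), where the groups overlapped and the call was lost without control replicate 2 (-0.46, 0.0528), 16 h replicate 1 (-0.39, 0.0914) or 16 h replicate 2 (-0.43, 0.068).

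C4H, the P450 of the second step, rose less than the ammonia-lyases at 2 h in slr-1. It had 1526, 1487 and 1379 CPM at 2 h in slr-1, against 914, 768 and 1075 CPM in controls, with no overlap and a log2 fold change of 0.67 ± 0.13 (adjusted p = 0.000201). In CASP1::shy2-2/slr-1 it had 932, 1379 and 853 CPM at 2 h, against 790.5, 969.6 and 779.7 CPM in controls. Those groups overlapped and the test was not passed (0.32, adjusted p = 0.0674). Between the genotypes at 2 h C4H was lower in CASP1::shy2-2/slr-1 (-0.47, adjusted p = 0.0122), a call lost without CASP1::shy2-2/slr-1 2 h replicate 1 (-0.39, 0.0735) or 3 (-0.35, 0.104) and in a fit of the compared groups alone (0.167). The difference of the responses was not past the threshold (-0.36, adjusted p = 0.193), though it was without CASP1::shy2-2/slr-1 2 h replicate 2 (-0.58, 0.00645). At 4 h the log2 fold change was 0.41 in both genotypes (adjusted p = 0.025 in CASP1::shy2-2/slr-1 and 0.0139 in slr-1). The first was lost without control replicate 1 (adjusted p = 0.0767), control replicate 3 (0.084) or 4 h replicate 1 (0.0717), and the second without control replicate 2 (0.30, 0.0906). C4H fell below control in slr-1 at 16 h (-0.49, adjusted p = 0.00439) and 24 h (-0.59, 0.00063).

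4CL1, the most abundant ligase, was the 1 member of 7 called between the untreated genotypes with all libraries. Controls had 465, 541 and 494.5 CPM in CASP1::shy2-2/slr-1, against 322, 304 and 442 CPM in slr-1, with no overlap and a log2 difference of 0.49 ± 0.14 (adjusted p = 0.0115). The call was lost without slr-1 control replicate 1 (0.41, 0.0801) or 2 (0.38, 0.0727). In that comparison 12.3% of all genes were called higher and 12.7% lower, and 1 of 7 members is near those shares. At 2 h in slr-1 4CL1 had 544, 599 and 573 CPM, above every control (log2 fold change 0.68 ± 0.14, adjusted p = 0.000291). In CASP1::shy2-2/slr-1 it had 492, 737 and 445 CPM at 2 h, which overlapped the controls (0.16, adjusted p = 0.409). The difference of the responses was -0.53 (adjusted p = 0.0661), which passed without slr-1 control replicate 3 (-0.70, 0.00975) or without CASP1::shy2-2/slr-1 2 h replicate 2 (-0.76, 0.00151). At 4 h both genotypes were higher than control, by 0.40 in CASP1::shy2-2/slr-1 (adjusted p = 0.0393) and 0.72 in slr-1 (0.000199). The first was lost without control replicate 1 (adjusted p = 0.114), control replicate 3 (0.0806), 4 h replicate 1 (0.103) or 4 h replicate 2 (0.093). 4CL1 fell in CASP1::shy2-2/slr-1 at 16 h (-0.47, adjusted p = 0.012), a call lost without 16 h replicate 3 (-0.36, 0.0567), and at 24 h (-0.63, 0.000689).

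4CL2 moved least. At 2 h it had 126, 199.9 and 124 CPM in CASP1::shy2-2/slr-1, against 111, 132 and 129.8 CPM in controls (0.28, adjusted p = 0.167). In slr-1 it had 176, 176 and 172 CPM at 2 h, against 101, 96.1 and 151 CPM in controls, with no overlap and a log2 fold change of 0.59 ± 0.15 (0.00258). This was its one call against control in either genotype.

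4CL3, the ligase known for flavonoid supply, had the largest response of the members. At 2 h in slr-1 it had 307, 252 and 233 CPM, against 16.8, 14.4 and 43.7 CPM in controls, far from overlapping. The log2 fold change was 3.40 ± 0.38 (adjusted p = 8.25e-08), a 10.6-fold difference of fitted means. Without control replicate 3, the highest control, it was 4.07 (1.39e-08), or 16.8-fold. In CASP1::shy2-2/slr-1 it had 64.1, 85.6 and 30.8 CPM at 2 h, against 37.3, 52.0 and 45.1 CPM in controls, which overlapped (0.42 ± 0.35, adjusted p = 0.37). The responses differed by -2.98 ± 0.50 (adjusted p = 0.000554), and between the genotypes at 2 h the difference was -2.13 ± 0.36 (9.24e-05).

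In slr-1 4CL3 stayed above control at 4 h, with 122, 94.9 and 78.6 CPM and a log2 fold change of 1.98 ± 0.36 (adjusted p = 9e-05). At 8 h it had 56.5, 54.7 and 39.9 CPM, which overlapped the highest control (1.01, adjusted p = 0.0259). That call was lost without control replicate 1 (0.78, 0.143), control replicate 2 (0.73, 0.146), 8 h replicate 1 (0.92, 0.0715) or 8 h replicate 2 (0.95, 0.0627), and it was 1.68 (0.000534) without control replicate 3, the library that stood apart. Without that library the difference of the responses also passed at 4 h (-2.11, adjusted p = 0.0028), 8 h (-2.08, 0.00366) and 16 h (-1.85, 0.00755). With it the values were -1.45 (0.0533) at 4 h and -1.42 (0.0591) at 8 h. In the untreated genotypes 4CL3 was 1.51 higher in CASP1::shy2-2/slr-1 without that library (0.00237), against 0.84 with it (0.0774).

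**Figure D2:**
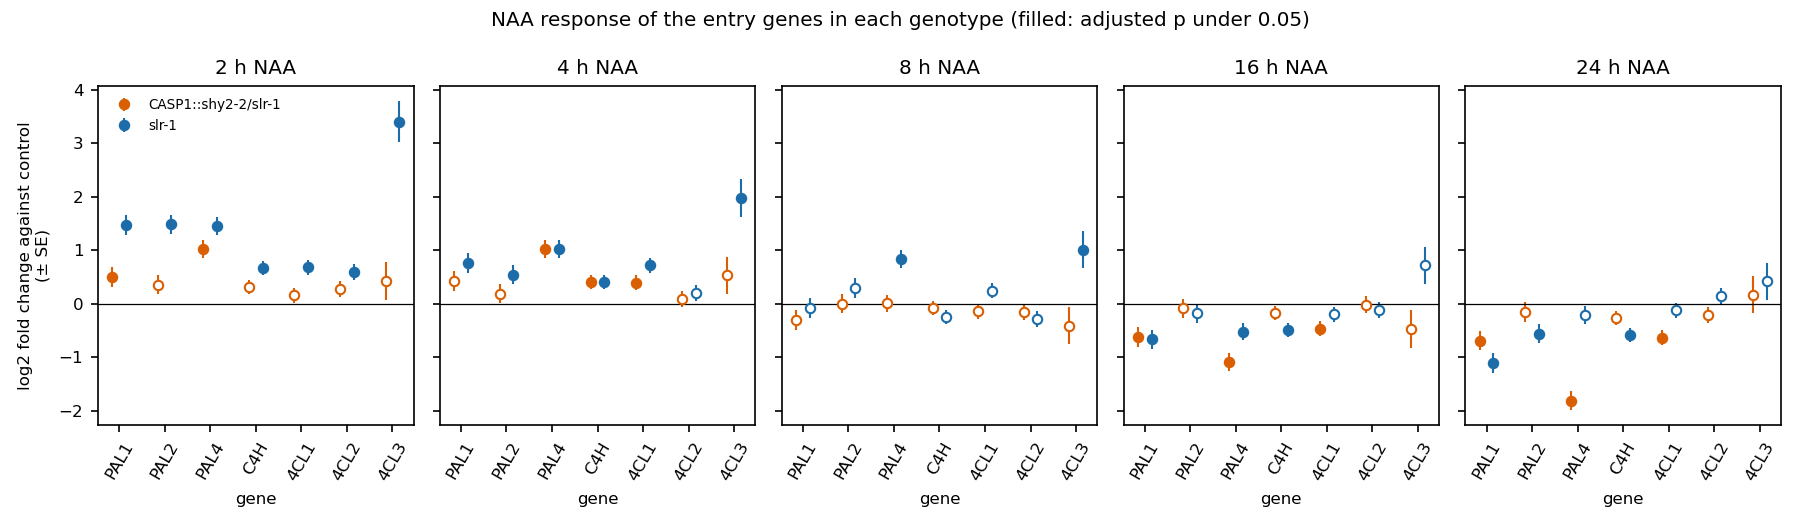
Log2 fold change of each tested entry gene at 5 times of NAA against control, with bars of 1 SE, in CASP1::shy2-2/slr-1 and slr-1, filled where the adjusted p was under 0.05. At 2 h all 7 slr-1 points are filled, against PAL1 and PAL4 in CASP1::shy2-2/slr-1, and at 24 h PAL4 in CASP1::shy2-2/slr-1 is the lowest point at -1.81.

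Counted over the members, 2 of 7 were called higher at 2 h in CASP1::shy2-2/slr-1 and 7 of 7 in slr-1, where 15.7% and 20.3% of all genes tested were called higher. At 4 h 3 of 7 were higher in CASP1::shy2-2/slr-1 (10.6% of all genes) and 6 of 7 in slr-1 (20.3%). No member was called lower at 2 h or 4 h in CASP1::shy2-2/slr-1 (15.4% and 11.9% of all genes lower at those times) or in slr-1 (22.5% and 21.8%). At 8 h no member was called in CASP1::shy2-2/slr-1 (7.79% of all genes higher, 7.15% lower), and in slr-1 2 were higher (17.9%) and none lower (17.8%). For CASP1::shy2-2/slr-1 at 8 h, edgeR gave 0 members an unadjusted p under 0.05 and DESeq2 called 0. At 16 h 3 members were lower in CASP1::shy2-2/slr-1 (13.9% of all genes) and 3 in slr-1 (22.5%), and none was higher (15.8% of all genes in CASP1::shy2-2/slr-1 and 22.4% in slr-1). At 24 h 3 members were lower in each genotype (21.1% of all genes in CASP1::shy2-2/slr-1 and 26.8% in slr-1), and none was higher (21.6% in CASP1::shy2-2/slr-1 and 23.3% in slr-1). PAL1 was among the 3 in both genotypes at 16 h and at 24 h, PAL4 and 4CL1 completed the CASP1::shy2-2/slr-1 sets, and PAL4 and C4H at 16 h and PAL2 and C4H at 24 h completed those of slr-1.

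The responses of the genotypes differed negatively for 5 member values and positively for none. Of these, 3 were at 2 h (7.07% of all genes negative, 8.49% positive), 1 at 8 h (5.98% and 5.64%) and 1 at 24 h (6.66% and 7.18%), with none at 4 h (6.03% and 5.91%) or 16 h (4.92% and 4.52%). At these 2 times edgeR gave 1 and 2 members an unadjusted p under 0.05, and DESeq2 called 1 and 0. Between the genotypes, 4 members (PAL1, PAL2, C4H and 4CL3) were lower in CASP1::shy2-2/slr-1 at 2 h and none higher (9.22% and 9.05% of all genes). None differed at 4 h (8.84% of all genes lower, 7.18% higher) or 16 h (5.08% and 3.58%), 1 was lower at 8 h (8.08% and 6.58%), and at 24 h PAL4 was lower (6.1%) and PAL2 higher (6.66%). At 4 h and 16 h, 0 members and 1 member had an unadjusted p under 0.05, and DESeq2 called 0 at both. The PAL2 difference at 24 h, 0.58 (adjusted p = 0.0355), was lost without any one of its 6 libraries (0.52 to 0.64, adjusted p 0.0508 to 0.12). Tested over all 5 times together, 5 members changed in CASP1::shy2-2/slr-1 (all but PAL2 and 4CL2, with 73% of all genes) and 7 in slr-1 (81.4%). The count of 5 of 7 is near that share, and in slr-1 most genes tested were called as well. By the same joint test 5 members differed between the genotypes (all but 4CL1 and 4CL2, with 26.4% of all genes). The comparisons with control share the control libraries of a genotype, so their calls are not separate evidence.

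With the code suffix as a term, estimated from the 4, 8 and 16 h groups that hold libraries of both kinds, all 7 members rose at 2 h in slr-1, by 1.41 for PAL1 and 3.57 for 4CL3. These values take the suffix effect at 2 h to be that of 4, 8 and 16 h, which was not tested. In slr-1 only replicate 3 has the suffix at those times, so suffix and replicate cannot be told apart there. That fit leaves out the second CASP1::shy2-2/slr-1 library of 2 h, which has a suffix of its own. The difference of the responses at 2 h passed in it for every member but PAL4, with the same values as in the fit without that library and with no suffix term, at -0.58 for C4H, -0.76 for 4CL1, -0.56 for 4CL2 and -3.31 for 4CL3. The suffix term cancels in this difference, since all remaining 2 h libraries have the same suffix and the controls have none. The equal values were therefore fixed by the design and say nothing about the suffix. The suffix fit also gained the difference of the responses for 4CL3 at 4 h (-1.38, adjusted p = 0.0474) and for 4CL1 at 24 h (-0.51, 0.0198).

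The third slr-1 control library also decided several values that were not called with it. Without it 4CL3 was higher than control in slr-1 at 16 h (1.39, adjusted p = 0.00197) and at 24 h (1.11, 0.00865), against 0.72 (0.0964) and 0.42 (0.328) with it. In slr-1 without it 4CL2 was higher at 4 h (0.45, 0.0136) and 24 h (0.40, 0.0246), and PAL2 (0.53, 0.0245) and 4CL1 (0.42, 0.0185) at 8 h. The difference of the responses then passed for 4CL1 at 8 h (-0.55, 0.042) and 24 h (-0.70, 0.0127), and for 4CL2 at 2 h (-0.54, 0.0437) and 24 h (-0.60, 0.0382).

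Of the steps from 2 to 4 h, 4 to 8 h, 8 to 16 h and 16 to 24 h, 16 member changes were called, all lower. At 4 h against 2 h no member was called in CASP1::shy2-2/slr-1 (6.05% of all genes lower, 5.33% higher), while in slr-1 PAL1 was lower by -0.71, PAL2 by -0.94 and 4CL3 by -1.42 (12.5% and 13.2%). At 8 h against 4 h PAL1, PAL4, C4H and 4CL1 were lower in CASP1::shy2-2/slr-1, by -0.73, -1.02, -0.50 and -0.54 (6.13% of all genes lower, 9.46% higher). In slr-1 PAL1, C4H, 4CL1 and 4CL2 were lower at that step, by -0.83, -0.66, -0.48 and -0.49 (4.79% and 5.24%). At 16 h against 8 h PAL4 was lower by -1.10 in CASP1::shy2-2/slr-1 (7.33% of all genes lower, 4.01% higher), and PAL1, PAL4 and 4CL1 by -0.59, -1.36 and -0.43 in slr-1 (5.96% and 3.85%). At 24 h against 16 h PAL4 was lower by -0.72 in CASP1::shy2-2/slr-1 (5.5% of all genes lower, 3.09% higher), which was -0.42 (adjusted p = 0.0953) without 16 h replicate 3. No member was called at that step in slr-1 (8.62% and 6.23%). At those 2 steps without a call, an unadjusted p under 0.05 was found for 0 members in CASP1::shy2-2/slr-1 (4 h against 2 h) and 2 in slr-1 (24 h against 16 h), and DESeq2 called 0 in both. In slr-1 the calls of 4CL1 and 4CL2 at 8 h and of PAL1 and 4CL1 at 16 h were each lost in at least 4 of the 6 fits that left out 1 of the libraries compared.

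**Figure D3:**
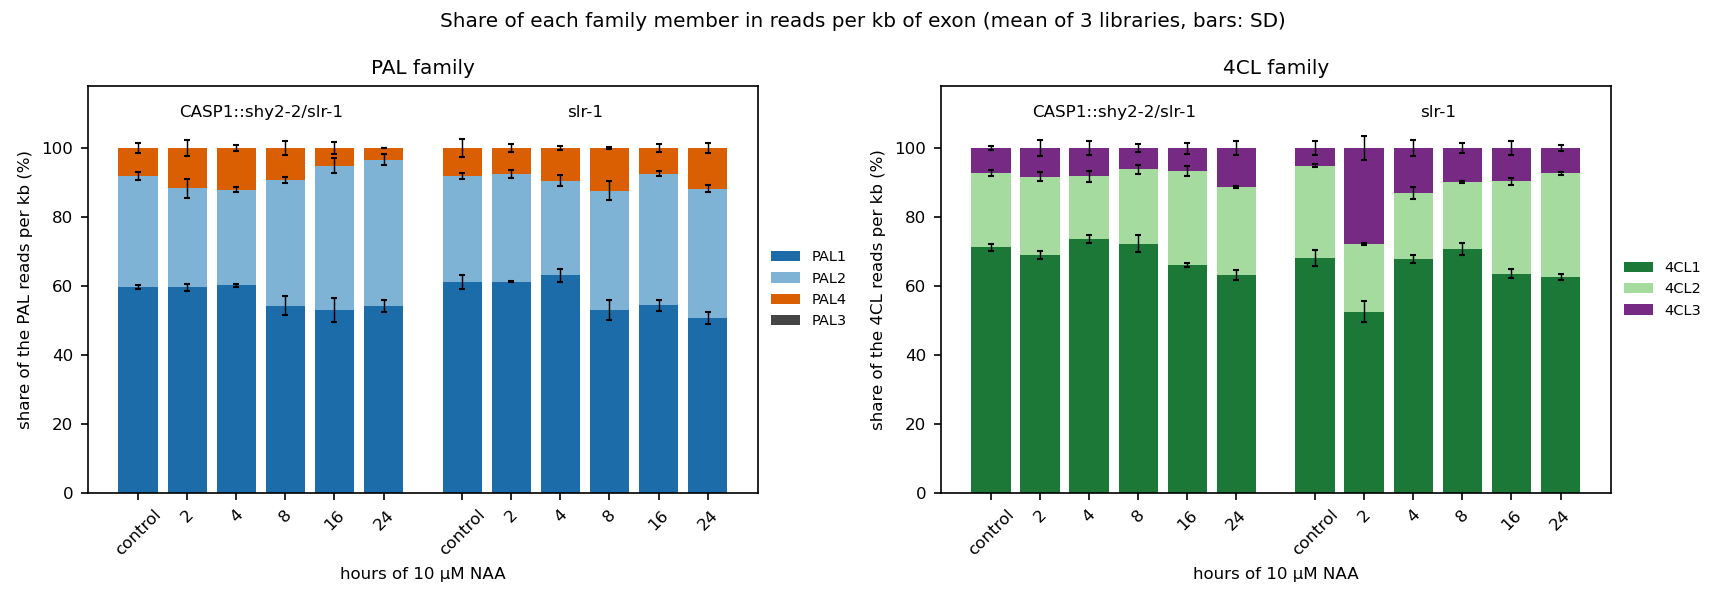
Share of each member in the reads per kb of exon of its family, as stacked means of 3 libraries with SD bars, for CASP1::shy2-2/slr-1 and slr-1 by hours of NAA. In slr-1 at 2 h 4CL3 takes 27.9% of the 4CL family, and at 24 h PAL4 takes 3.33% of the PAL family in CASP1::shy2-2/slr-1 against 11.8% in slr-1.

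The make-up of both families differed between groups. Per kb of exon, 4CL3 made up 27.9 ± 3.42% of the 4CL reads in slr-1 at 2 h, against 5.14 ± 2.01% in slr-1 controls, while 4CL1 made up 52.5 ± 3.15% against 68.0 ± 2.36% (SD, n = 3). The 4CL3 share in CASP1::shy2-2/slr-1 was 8.35 ± 2.43% at 2 h, against 7.33 ± 0.596% in controls. In slr-1 the 4CL3 share was also above every control library (3.80 to 7.45%) at 4 h (11.2 to 15.6%) and at 8 h (8.21 to 11.2%), and the 24 h libraries of CASP1::shy2-2/slr-1 had 10.2 to 13.5%, against 6.70 to 7.89% in its controls. PAL1 was the main ammonia-lyase in every group, at 50.7 to 63.0% of the PAL reads. PAL4 made up 3.33 ± 0.098% in CASP1::shy2-2/slr-1 at 24 h, against 11.8 ± 1.39% in slr-1 at 24 h, with controls at 8.12 ± 1.47% and 8.03 ± 2.48%. PAL2 made up 42.6 ± 1.71% in CASP1::shy2-2/slr-1 at 24 h, against 37.5 ± 1.09% in slr-1. PAL3 never made up more than 0.0411%. These shares are a description, since 3 libraries against 3 cannot reach an exact p under 0.10.

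Around the entry steps, 14 of 19 genes that supply phenylalanine rose at 2 h in slr-1. Of the 19 tested, 2 were called higher and 0 lower in CASP1::shy2-2/slr-1 (median log2 fold change 0.20), and 14 higher and 2 lower in slr-1 (0.60), while all genes had medians of -0.02 and -0.05. Of all genes, 15.7% were called higher and 15.4% lower in CASP1::shy2-2/slr-1, and 20.3% and 22.5% in slr-1. ADT3 (AT2G27820, named PD1 in the RefSeq table), an arogenate dehydratase of the last step to phenylalanine, had a log2 fold change of 0.20 in CASP1::shy2-2/slr-1 (adjusted p = 0.258) and rose by 1.12 ± 0.13 in slr-1 (2.48e-07). CM1, a chorismate mutase at the entry to that branch, had 0.33 in CASP1::shy2-2/slr-1 (adjusted p = 0.116) and rose by 1.42 ± 0.16 in slr-1 (1.1e-07). The responses differed by -0.92 for ADT3 (adjusted p = 0.00262), -1.09 for CM1 (0.00267), -0.82 for ADT1 (0.00477) and -1.05 for ADT6 (0.00306), further arogenate dehydratases. Over the list 1 gene differed positively and 6 negatively (8.49% and 7.07% of all genes at 2 h).

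Of the 5 P450 redox partners and scaffold genes, 2 were called higher at 2 h in CASP1::shy2-2/slr-1 (15.7% of all genes, median 0.21). In slr-1 1 was higher and 1 lower at 2 h (20.3% and 22.5% of all genes, median -0.11), which is near those shares. ATR2, a P450 reductase that hands electrons to enzymes such as C4H, rose by 0.32 in CASP1::shy2-2/slr-1 (adjusted p = 0.0109) and by 0.81 ± 0.09 in slr-1 (1.5e-07) at 2 h. CB5D, a cytochrome b5 that serves lignin P450s, had -0.04 in CASP1::shy2-2/slr-1 and fell in slr-1 (-0.58 ± 0.09, adjusted p = 2.24e-05). The membrane scaffold genes MSBP1 and MSBP2 were not called in slr-1 (-0.11 and -0.08), and in CASP1::shy2-2/slr-1 MSBP2 was called at 0.31 (adjusted p = 0.0217), a call lost in 3 of 6 fits without 1 library. The Kelch F-box proteins KFB01, KFB20, KFB39 and KFB50 mark PAL for degradation. Of these 4, 3 rose at 2 h in CASP1::shy2-2/slr-1 (median 1.12, 15.7% of all genes higher). At 2 h in slr-1 0 were called (median -0.78, 20.3% of all genes higher and 22.5% lower). There edgeR gave 0 an unadjusted p under 0.05 and DESeq2 called 0. KFB20 had a log2 fold change of 3.44 ± 0.84 in CASP1::shy2-2/slr-1 (adjusted p = 0.00266) and -1.08 ± 0.77 in slr-1 (0.263), and the responses differed by 4.52 ± 1.13 (0.00945). The calls of KFB01 (0.74, adjusted p = 0.0141) and KFB39 (1.11, 0.0189) in CASP1::shy2-2/slr-1 were each lost in 3 of 6 fits without 1 library.

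Of the branches that use 4-coumaroyl-CoA, the flavonoid list rose in slr-1 at 2 h. Of 9 flavonoid genes tested of 10, 0 were called higher and 3 lower in CASP1::shy2-2/slr-1 (15.7% and 15.4% of all genes, median 0.01). In slr-1 7 were higher and 0 lower (20.3% and 22.5% of all genes, median 1.40). The responses differed negatively for all 9 (7.07% of all genes, median -2.17). UGT78D2, a flavonoid glucosyltransferase, had 0.45 in CASP1::shy2-2/slr-1 and rose by 2.61 ± 0.29 in slr-1 (adjusted p = 6.53e-08). UGT78D1, a flavonol rhamnosyltransferase, had 0.25 in CASP1::shy2-2/slr-1 and rose by 2.72 ± 0.31 in slr-1 (1.14e-07). The ring-hydroxylating F3'H fell in CASP1::shy2-2/slr-1 (-1.84 ± 0.30, adjusted p = 3.64e-05) and rose in slr-1 (1.03 ± 0.29, 0.00499). CHI, chalcone isomerase, had 0.01 in CASP1::shy2-2/slr-1 (adjusted p = 0.986) and rose by 1.38 ± 0.18 in slr-1 (1.21e-06), and its non-catalytic relative CHIL had 0.18 and 1.69 ± 0.23 (1.91e-06 in slr-1). At 4 h 6 flavonoid genes were higher and 1 lower in CASP1::shy2-2/slr-1 (10.6% and 11.9% of all genes, median 1.01), and 8 higher in slr-1 (20.3%, median 1.48).

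The monolignol list, on the way to lignin, was called higher for 4 of 10 genes at 2 h in CASP1::shy2-2/slr-1 (median 0.28) and for 7 of 10 in slr-1 with 1 lower (median 0.50). Of all genes, 15.7% were higher at 2 h in CASP1::shy2-2/slr-1, and 20.3% were higher and 22.5% lower in slr-1. C3H1 and HCT, which act in turn on the shikimate ester of 4-coumarate, rose by 0.68 ± 0.12 and 0.47 ± 0.11 in CASP1::shy2-2/slr-1 (adjusted p = 9.44e-05 and 0.00229) and by 1.08 ± 0.12 and 0.89 ± 0.11 in slr-1 (7.95e-08 and 6.73e-07). Their responses did not differ past the threshold (adjusted p = 0.106 and 0.0737). At 24 h 6 of the 10 were lower and 1 higher in CASP1::shy2-2/slr-1 (median -0.56), and 5 lower and 1 higher in slr-1 (median -0.44). Of all genes, 21.1% were lower and 21.6% higher then in CASP1::shy2-2/slr-1, and 26.8% and 23.3% in slr-1. Of 4 coumarin genes, 0 were called at 2 h in CASP1::shy2-2/slr-1 (15.7% of all genes higher, 15.4% lower) and 1 in slr-1 (20.3% and 22.5%). The count of 1 of 4 is near those shares. At 24 h 0 were called in CASP1::shy2-2/slr-1 (21.6% of all genes higher, 21.1% lower), and all 4 were lower in slr-1 (26.8% of all genes, median -1.41). Of the 4, 0 in CASP1::shy2-2/slr-1 had an unadjusted p under 0.05 at either time, and DESeq2 called 0. In slr-1 the calls of F6'H1 and CYP82C4, both enzymes of coumarins that mobilise iron, were lost at 24 h in 3 of 6 and 5 of 6 fits without 1 library.

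Of 8 MYB regulators tested of 11, 5 were higher at 2 h in CASP1::shy2-2/slr-1 (15.7% of all genes, median 0.66) and 6 in slr-1 (20.3%, median 1.85). MYB4, a repressor known to act on C4H, had 0.20 in CASP1::shy2-2/slr-1 (adjusted p = 0.621) and rose by 2.20 ± 0.29 in slr-1 (9.69e-07). Its relative MYB32 rose by 0.91 in CASP1::shy2-2/slr-1 (adjusted p = 0.00169) and by 2.43 ± 0.22 in slr-1 (2.99e-09). MYB12, an activator of flavonol genes, rose by 1.08 in CASP1::shy2-2/slr-1 (adjusted p = 0.0491, lost in 4 of 6 fits without 1 library) and by 2.71 ± 0.43 in slr-1 (1.73e-05). MYB63, an activator of lignin genes, rose by 1.43 ± 0.20 in CASP1::shy2-2/slr-1 (adjusted p = 5.42e-06) and by 1.51 ± 0.20 in slr-1 (1.08e-06), and the responses did not differ past the threshold (-0.08, 0.876).

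At 24 h MYB85, another lignin activator, was lower in CASP1::shy2-2/slr-1 (-2.17 ± 0.22, adjusted p = 2.16e-08) and higher in slr-1 (1.19 ± 0.19, 1.45e-05). Among related acyl-activating and acyltransferase genes, FACT, which makes alkyl caffeates of root waxes, had -0.25 at 24 h in CASP1::shy2-2/slr-1 (adjusted p = 0.0664) and rose by 1.13 ± 0.11 in slr-1 (3.2e-09). ASFT, the feruloyl transferase of suberin, had 0.30 at 2 h in CASP1::shy2-2/slr-1 (adjusted p = 0.245) and rose by 1.74 ± 0.20 in slr-1 (1.14e-07).

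**Figure D4:**
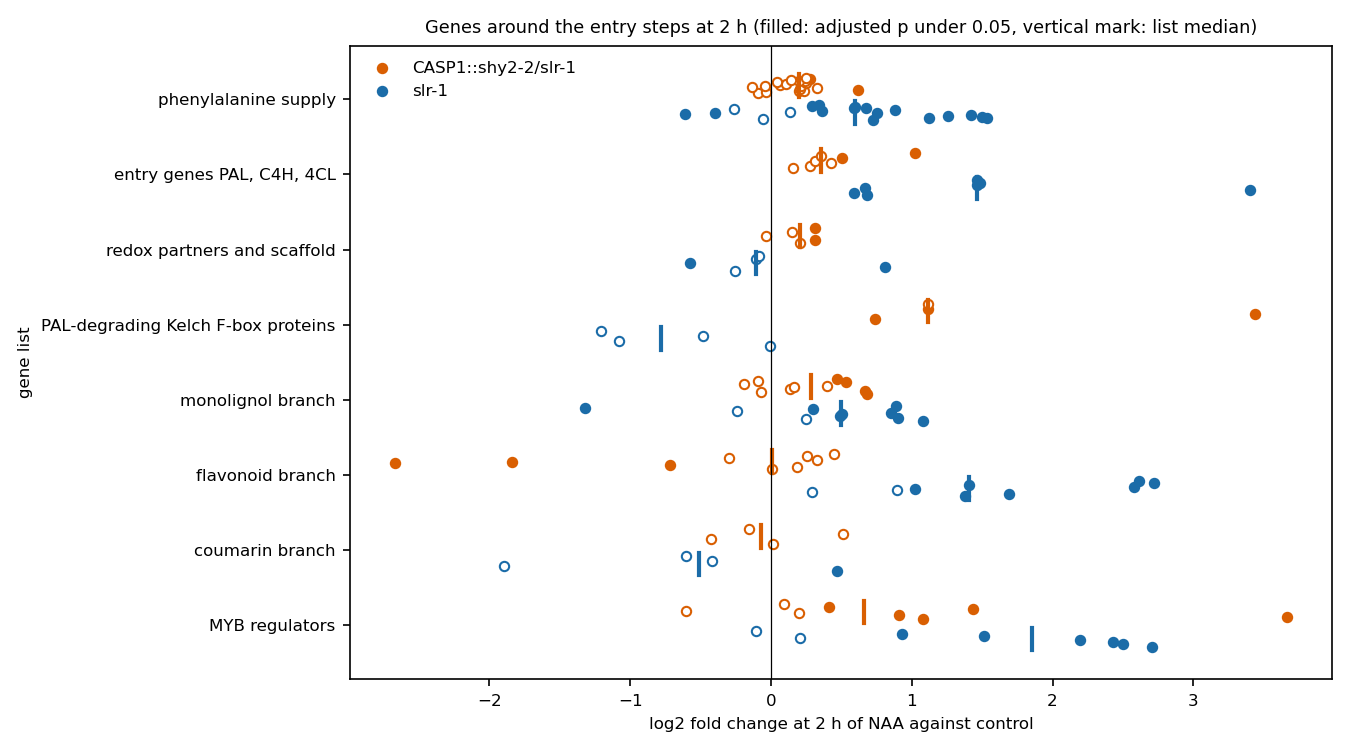
Log2 fold change at 2 h of NAA against control for the genes of each list shown in CASP1::shy2-2/slr-1 and slr-1, with 1 point per gene, filled where the adjusted p was under 0.05, and a vertical mark at the list median. The related acyl-activating and acyltransferase genes (4CL5, ASFT and FACT) are not shown. The flavonoid medians are 0.01 in CASP1::shy2-2/slr-1 and 1.40 in slr-1, and the Kelch F-box medians are 1.12 and -0.78.

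Markers of cell types that use these products also changed, in part at other times than the members. The summed level of 5 suberised endodermis markers was 569 to 685 CPM at 2 h in CASP1::shy2-2/slr-1, against 580 to 684 CPM in its controls, and 1198 to 1279 CPM at 2 h in slr-1, against 582 to 829 CPM in its controls. At 2 h 1 of the 5 was called lower in CASP1::shy2-2/slr-1 (15.4% of all genes) and 4 were called higher in slr-1 (20.3%). In slr-1 the suberised endodermis sum was 1436 to 1595 CPM at 4 h, 1435 to 2011 CPM at 8 h, 894 to 1132 CPM at 16 h and 567 to 640 CPM at 24 h. PAL1 and C4H had their highest group mean there at 2 h. In CASP1::shy2-2/slr-1 that sum was 641 to 703 CPM at 4 h, 804 to 969 CPM at 8 h, 841 to 914 CPM at 16 h and 484 to 536 CPM at 24 h. Over all libraries the lowest level was 1.77 CPM for GPAT5 (median 67.59) and 8.46 CPM for CYP86A1 (median 210.96). It was 74.06 CPM for FAR4 (median 153.27), 21.75 CPM for FAR5 (199.35) and 57.29 CPM for KCS2 (99.29). The suberised endodermis sum, at 484 CPM or more in every library, therefore does not show the course of each marker. Calls of these single markers are given for 2 h alone. The 7 xylem markers summed to 924 to 1000 CPM at 2 h in CASP1::shy2-2/slr-1, against 876 to 1120 CPM in controls, and to 1009 to 1023 CPM at 2 h in slr-1, against 819 to 845 CPM in controls. At 24 h all 7 were lower in both genotypes, as were 21.1% of all genes in CASP1::shy2-2/slr-1 and 26.8% in slr-1. The xylem sums were then 100 to 130 CPM in CASP1::shy2-2/slr-1 and 174 to 215 CPM in slr-1. The 7 Casparian strip markers were also all lower at 24 h, summing to 13.1 to 15.7 CPM in CASP1::shy2-2/slr-1 and 12.6 to 14.4 CPM in slr-1. Xylem and suberised endodermis markers were above 0 in every library. The part of these cell types in the changes of the entry genes was not tested.

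Across the 12 group means of log2 CPM, the members were alike to different degrees, from r = 0.98 between PAL1 and C4H to 0.56 between PAL4 and 4CL2. The gene most like PAL1 was the arogenate dehydratase PD1 (ADT3, r = 0.991), followed by C4H (0.980) and AT3G07700 (0.979). PAL2 was most like CM1 (0.967), ATR2 (0.947) and AT3G27880 (0.947), and C4H was most like PAL1, AT5G42620 (0.977) and PD1 (0.964). PAL4 was most like KIN2 (0.961), AT5G07330 (0.958) and GSTU16 (0.952). 4CL1 was most like EULS3 (0.974), HCT (0.960) and HMG1 (0.952), and 4CL2 most like AT4G27680 (0.927), AT3G12510 (0.908) and AT3G22430 (0.898). 4CL3 was most like ABC1 (0.964), UGT78D2 (0.962) and PHR1 (0.957). These correlations describe group means that share libraries and treatment times.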

How the data were processed

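RNA was measured in 36 root libraries of *Arabidopsis thaliana*, 3 for each of 12 groups. The authors deposited whole-number read counts per gene. Per the submitters' processing notes, the tools were cutadapt 1.3, STAR 2.4.0a and HTSeq 0.6.1 with the TAIR10 build, and the kit was strand-specific per the labels' protocols. The strand setting of the counting is not given in the sources used here. A read that fits several genes equally can be lost in such counting, which bears on near-identical family members.

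The counts were used as deposited. The 5 summary categories that name no gene, 5.28 to 11.2% of all reads of a library, were left out of library sizes and tests. With edgeR 4.0.16 in R 4.3.3, 20939 of 32678 genes passed the low-count filter (filterByExpr over the 12 groups), libraries were scaled by TMM (factors 0.939 to 1.07), and 1 mean per group was fitted to all 36 libraries with the robust quasi-likelihood model (24 residual degrees of freedom, biological coefficient of variation 0.149). Every p-value is from its quasi-likelihood F-test with Benjamini-Hochberg adjustment over all genes tested, 2-sided, and a gene was called under an adjusted p of 0.05. Standard errors (SE) of log2 fold changes are the size of the fold change over the square root of F. CPM are counts scaled to a common TMM-adjusted library size, and an SD is over 3 libraries. Depth per library was 28105042 to 48956957 reads in genes. The procedure was also run on simulated counts, drawn with means and spreads taken from the fit to these data.

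The labels do not say whether replicates were separate cultures, so p-values measure the spread between these libraries. No 2 libraries of a group differed by as little as sampling noise (chi-square per degree of freedom at least 3.9). Replicate numbers could be followed in 16 comparisons. In 1 of them, between the genotypes at 16 h, the 3 same-numbered pairs deviated together (correlations 0.518, 0.227 and 0.656).

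The members are listed by locus, but the choice of this set, the gene lists around it and the tests was made with earlier results of these data known. Besides the members, the text names from each list the 3 genes with the smallest p over all NAA times in slr-1 and the 3 with the smallest p in the interaction over all times, and for each member the 3 genes (mean log2 CPM of at least 1, with a prior count of 2) whose group means correlate best with it. Alternatives were another scaling, DESeq2 1.42.0, other low-count filters, a replicate block, the library code suffix as a term or restricted to libraries without one, a fit of the compared groups alone, a fold threshold, and leaving out each library. Total count scaling and leaving out 5 libraries together were chosen after seeing the data. Gene models and sequences are RefSeq's, on TAIR10.1.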

Additional observations from a re-analysis of the deposited data

Results flagged for a closer look

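The following responses to NAA differed between the genotypes by the interaction test itself (CASP1::shy2-2/slr-1 minus slr-1, log2, edgeR with Benjamini-Hochberg adjustment). No group was tested for a single library far from the others, because each holds 3. The genes around the entry genes were picked by the interaction over all times. Each is given at the 1 of 5 times with its smallest unadjusted p, if called there. That choice of gene and time used these same data. Among the entry genes the differences at 2 h were -0.96 for PAL1, -1.13 for PAL2 and -2.98 for 4CL3, and PAL4 differed by -0.83 at 8 h and by -1.60 at 24 h. For genes around them at 2 h, the difference was -0.82 for ADT1, -0.92 for ADT3, -1.05 for ADT6, -0.49 for ATR2 (adjusted p = 0.0141, lost in 2 of 12 fits without 1 library) and 0.54 for CB5D. It was -1.37 for CHI, -2.86 for F3'H, -2.47 for UGT78D1, -1.52 for MYB32, -2.0 for MYB4 and -1.44 for ASFT at the same time. KFB39 differed by 1.60 at 2 h (adjusted p = 0.0332, lost in 7 of 12 fits without 1 library), KFB01 by 1.11 at 8 h and KFB20 by 4.71 ± 1.17 at 16 h (0.0109). The step of KFB20 from 8 to 16 h in CASP1::shy2-2/slr-1 changed sign without the 5 libraries that stood apart (-2.0, adjusted p = 0.0164). At 16 h CSE, a caffeoyl shikimate esterase, differed by 0.68, and CCR2, a cinnamoyl-CoA reductase, by -0.93. At 24 h MYB85 differed by -3.36, FACT by -1.38 and 4CL5, a further ligase gene, by -0.69. At that time the coumarin genes COSY and S8H differed by 0.63 (adjusted p = 0.0485, lost in 10 of 12 such fits) and 3.55 (0.048, lost in 11 of 12). What sets these genes apart was not tested.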

How the results depend on the processing

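Of 61 member calls, 40 were kept in every fit that left out 1 library and 21 were lost in at least 1, among them 11 of 32 against control and 5 of 16 between successive times. Another scaling (RLE) and DESeq2 lost 0 of the 61. The replicate block also lost 0 and changed no other call of a member, with 15 calls higher and 6 lower in slr-1 as without it. With all libraries the counts were 5 higher and 6 lower against control in CASP1::shy2-2/slr-1, 5 negative differences of the responses, 1 higher between untreated genotypes, 1 higher and 6 lower between treated genotypes, and 0 higher and 16 lower between successive times. Leaving out 1 library gave 2 to 8 higher in CASP1::shy2-2/slr-1, 4 to 13 negative differences, 0 to 2 higher untreated, 0 to 1 higher and 5 to 7 lower between treated genotypes, and 0 to 2 higher and 12 to 17 lower between successive times. It gave 12 to 21 higher and 4 to 6 lower in slr-1, and 5 to 6 lower in CASP1::shy2-2/slr-1. The joint test over all times then called 4 to 7 members in CASP1::shy2-2/slr-1 and in the interaction. The 13 negative differences and 21 higher in slr-1 came without slr-1 control replicate 3, and 8 negative differences came without CASP1::shy2-2/slr-1 2 h replicate 2. Without the 5 libraries that stood apart (that control, that 2 h library, CASP1::shy2-2/slr-1 8 h replicate 3 and replicate 3 of both genotypes at 16 h), there were 21 negative differences, 4 higher untreated, 5 higher and 11 lower between treated genotypes, and 5 higher and 26 lower between successive times. The 5 were chosen after seeing the data. All but that control differ in the code suffix from the other libraries of their group. For those, standing apart and the suffix cannot be told apart. The code suffix as a term, in a fit that also leaves out that 2 h library, gave 10 negative differences and 2 higher between successive times. Libraries without a suffix alone hold no 2 h group. They gave 4 negative differences over 4 times, against 2 with all libraries, with 2 higher between treated genotypes and 1 between successive times. DESeq2 gave 8 negative differences, and total count scaling 3 higher in CASP1::shy2-2/slr-1. A fit of the compared groups alone lost 18 of 61 and gave 3 lower in slr-1, 3 negative differences, 0 higher untreated and 4 higher between treated genotypes. Requiring an absolute log2 fold change of at least 1 left 7 higher and 1 lower in slr-1, 2 and 2 in CASP1::shy2-2/slr-1, 3 negative differences, 0 untreated, 0 higher and 2 lower between treated genotypes, and 4 lower between successive times.

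Values that were not called with all libraries changed sign and were called in some alternatives. These were KFB50 at 16 h against control in CASP1::shy2-2/slr-1 (-1.32 with libraries without a suffix and -1.32 without the 5 libraries), and, without the 5 libraries, 4CL2 at 16 h in slr-1 (0.18) and, at 16 h against 8 h in CASP1::shy2-2/slr-1, KFB20 (-2.0) and KFB50 (-1.50). CYP82C4 between the genotypes at 4 h ranged from -1.09 to 2.85 over the fits without 1 library, the highest without slr-1 4 h replicate 3. The causes were not tested. Further called values moved by over 1.5 times. With libraries without a suffix alone, PAL1 and C4H at 8 h against 4 h in CASP1::shy2-2/slr-1 were at -1.29 and -0.83, which is 1 library against 1, assumed to vary like the other groups. Without the 5 libraries, PAL4 at 16 h in slr-1 was at -0.84 and C4H between the genotypes at 2 h at -0.71. Raw reads in place of reads per kb gave PAL1 60.2% of PAL reads in CASP1::shy2-2/slr-1 controls, 60.9% at 4 h there and 61.8% at 2 h in slr-1. They gave 4CL1 74.8, 72.8, 77.0, 75.8, 70.0 and 67.2% of 4CL reads from control to 24 h in CASP1::shy2-2/slr-1, and 72.0, 56.6, 71.6, 74.3, 67.6 and 66.8% in slr-1, since 4CL1 has the longest exons of the 3. Total count scaling moved the share of higher calls by over 10 points in 11 of 29 comparisons, and RLE in 0. Those were, with the share under TMM second, 36.6 and 50.5% in CASP1::shy2-2/slr-1 at 2 h, 36.8 and 47.1% at 4 h, 61.9 and 49.9% in slr-1 at 16 h, 59.6 and 46.5% at 24 h, and 34.7 and 48.5%, 36.2 and 47.9%, and 36.8 and 51.9% for the difference of the responses at 8, 16 and 24 h. They were also 59.4 and 49.2% between untreated genotypes, 58.5 and 35.4% for 16 h against 8 h in CASP1::shy2-2/slr-1, and 61.6 and 51.3% (4 h against 2 h) and 57.3 and 39.3% (16 h against 8 h) in slr-1. Depth limits PAL3 alone among the members.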
